A study of Homo sapiens with 12 samples.

Results

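The genes described here encode the histones that package newly made DNA, together with the linker histones. They are the protein coding genes whose symbols start with H1-, H2AC, H2BC, H3C or H4C. The reference held 73 genes that are described here, and 71 of them were among the 40490 gene identifiers of the data. The signal of H2AC18 and H2AC19 was not analysed here, and they enter only the counts of positions, 3′ ends and promoters. SW1353 is an established cell line derived from a human chondrosarcoma, a cartilage tumour. Cells received a miR-455 mimic (a synthetic copy of the microRNA), a mimic control, a miR-455 inhibitor (an oligonucleotide that binds the mature microRNA) or an inhibitor control. Every oligonucleotide was given at 50 nM with a Lipofectamine reagent and RNA was taken after 48 h, so all 4 groups share the transfection, and no group was left untransfected. Each group had 3 RNA-seq libraries, 12 in all. The study names the 3p arm of miR-455. The sources used here do not give whether the 3 libraries of a group are separate transfections, so p-values reflect only how far apart these libraries lie, within 1 cell line, and that spread may be technical.

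Nucleosomes are built from the core histones H2A, H2B, H3 and H4, and H1 binds the linker DNA between them. Most core histone genes lie in clusters as many near-identical copies without introns. They are transcribed mainly in S phase, when DNA is copied, and their mRNAs usually end not in a poly(A) tail but in a short stem-loop bound by the protein SLBP. Some of the genes can also give longer, polyadenylated transcripts. H1-10 is a linker histone gene outside the clusters, polyadenylated and expressed outside S phase as well. Extraction gave total RNA, and the sources used here do not give whether poly(A) RNA was then selected.

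The genes sat mostly in 2 clusters. In GENCODE 29 (GRCh38), 53 of the 73 lay on chromosome 6, and 11 lay on chromosome 1, of which 9 were in the cluster at chr1:149782689-149887916. A further 4 had no position in that release. The 3′ stem-loop was searched in the annotated transcripts within 200 bases after the stop codon, with the 16-base consensus described for these mRNAs. It was found in 29 genes, 23 to 57 bases after the stop codon (median 36). It was not found in H1-10, H1-7, H1-8 and H2BC11. Another 40 genes had no match but less than 60 bases annotated after their stop codon, so absence could not be read. A match in such a short end was counted as found, as in H4C11 with 44 bases.

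The stem-loop took 6 forms, and examples are printed because they are the feature that sets these mRNAs apart. The 16 bases of the stem-loop are in capitals with 5 bases on each side, written 5′ to 3′ as in the GENCODE 29 transcripts, in 6 genes of the series.
H2AC6: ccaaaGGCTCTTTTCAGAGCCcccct
H2BC21: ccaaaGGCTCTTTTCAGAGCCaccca
H2BC5: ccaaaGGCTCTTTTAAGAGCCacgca
H4C8: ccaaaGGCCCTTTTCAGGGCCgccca
H4C9: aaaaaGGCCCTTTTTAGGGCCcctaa
H2AC11: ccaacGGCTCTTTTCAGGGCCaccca
The form in H2AC6 and H2BC21 was the most common and was found in 15 genes. The form in H4C8 was found in 5, that in H2BC5 in 4 and that in H4C9 in 3. H2AC11 alone among the searched genes carried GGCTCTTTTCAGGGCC, and H3C6 alone carried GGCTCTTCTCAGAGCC.

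The mature microRNA is shown for its seed, bases 2 to 8, in capitals (RefSeq, GRCh38.p14, chr9:114209487-114209507, plus strand).
hsa-miR-455-3p: gCAGUCCAugggcauauacac
The complement of the seed, TGGACTG, occurred in 0 of the histone genes' annotated transcripts. For the 40 genes with no annotated 3′ end this says nothing of the bases after the stop codon.

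The promoters of the core histone genes shared short motifs. RefSeq promoter windows from 250 bases before to 50 bases after the start, on both strands, were at hand for 67 of the genes and for 15843 protein coding genes. The octamer ATTTGCAT, the site of the factor POU2F1 in H2B promoters, was in 38.8% of the histone windows and in 1.7% of all windows. It was in 14 of 18 H2B windows and 11 of 16 H2A windows, in 1 of 11 H3 windows, and in 0 of 9 H1 and 0 of 13 H4 windows. Windows of neighbouring genes that point away from each other can overlap, so 1 octamer can be counted in both. The octamer of H2AC6 was that of H2BC4 read on the other strand. In the same way, H2AC11 shared its octamer with H2BC11, and H2BC21 shared its own with H2AC20. The H3 window with the octamer, that of H3C4, showed it at the same position and with the same flanking bases as that of H2AC7. The CCAAT box (CCAAT) was in 83.6% of the histone windows and 36.4% of all, and the TATA box (TATAAA) in 64.2% and 9.63%. The H4 windows were the class with the fewest CCAAT boxes, 3 of 13. These matches are descriptions of the letters and not of bound factors.
The octamer of 3 genes described below is shown in capitals with 8 bases on each side, on the strand of the gene, to let its position be compared with their levels (H2AC6 and H2AC11 carry it as the complement).
H2BC21, first base 46 before the start: gagccctaATTTGCATaaggtggt
H2AC6, first base 130 before the start: gcagagctATGCAAATgaggtatg
H2AC11, first base 208 before the start: aatcgcttATGCAAATaaggtgaa

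The deposited values are a normalised signal per gene, namely estimated read counts scaled by a size factor per library and not corrected for gene length. Estimated depth lay between 10540000 and 12480000 reads per library, 1 read was worth 0.900 to 1.10 of signal, and a value of 0 allows up to 2.70 to 3.29 of signal (3 reads, counting error only). The histone genes together held a signal of 4820 to 7794 per library. Marker genes were checked once. SOX9, a cartilage regulator, was between 994 and 1415 in every library, whereas COL2A1, which encodes the collagen of hyaline cartilage, was 0 in every library and the mesenchymal marker VIM was high (33623 to 43293). The library mimic replicate 3 stood apart. On the first principal component, which held 25.0% of the variance, it lay at 20.9, while the other mimic libraries lay at -59.7 and -41.5 and the inhibitor control libraries at 21.1 to 31.7. Calls, medians and fitted differences that rest on the mimic group are therefore also given without it where it moves them.

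Of the 71 genes, 27 reached a signal of 5 in at least 6 libraries and were tested. A further 29 fell below this filter, with no value above 10.4, and 15 were 0 in all 12 libraries. The tested genes were 3 of 9 H1, 5 of 15 H2A, 9 of 19 H2B, 4 of 13 H3 and 6 of 15 H4 genes. The highest mean below the filter was that of H2AC20, at 3.90. The lowest tested mean was that of H2AC17, with 4.19, 4.03 and 1.88 in the mimic controls, 0, 6.58 and 9.07 with mimic, 4.50, 5.77 and 5.09 in the inhibitor controls and 6.43, 5.08 and 3.07 with inhibitor. The inhibitor controls lay above the mimic controls, and every other pair of groups overlapped.

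**Figure D1:**
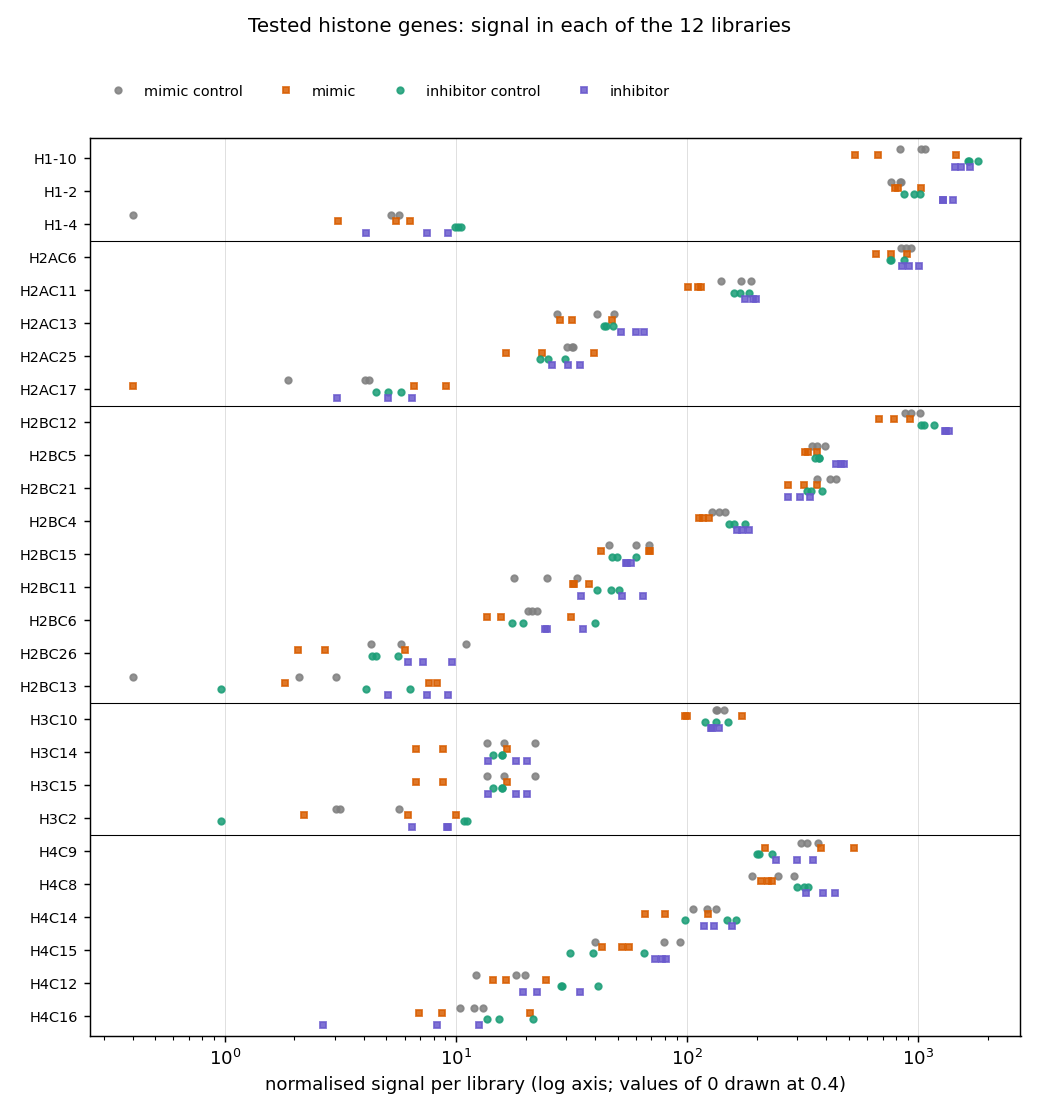
Normalised signal (log axis) of the 27 tested histone genes in each of the 12 libraries, ordered by class and mean, with circles for the controls and squares for mimic and inhibitor. The signal ran from 1278 on average for H1-10 to about the level of single reads for H2AC17 and H2BC13, and among the lowest genes the libraries of 1 group often spread over those of the others, while for H1-4 the inhibitor controls lie above the mimic controls.

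A few genes held most of the signal. H1-10, H2BC12, H1-2, H2AC6 and H2BC5 together made up 71.0% of the signal of the tested genes. Per kilobase of the longest GENCODE 29 transcript, the mean level of H1-10 was 848, that of H2AC6 was 506 and that of H2BC5 was 487. The levels per kilobase of H2BC21 and H4C8 were 158 and 135. H2BC12 and H1-2 have only their coding sequence in that release (381 and 642 bases), so their levels per kilobase cannot be set beside these. No variation between libraries was attached to this order, since the length is an annotation and not a measurement.

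Tested and untested genes differed in how they were annotated. The longest transcript had a median of 1400.5 bases in the tested genes and 411 bases in the untested ones. Only the coding sequence was annotated for 4 tested and 28 untested genes. Among the genes with a stem-loop, 17 of 19 tested and 7 of 10 untested genes also had an annotated 3′ UTR of at least 200 bases in 1 or more transcripts. In some genes the transcript that holds the stem-loop ends close after it, 1 base in H2BC6 and 18 bases in H4C8, and in others it runs on, by 1128 bases in H2AC6 and 1729 in H2BC21. A poly(A) signal (AATAAA) lay in the last 50 bases of a transcript in 14 tested and 7 untested genes. These are counts without a test, and whether the length of the reference transcript or the selection of the RNA moves the signal was not tested.

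**Figure D2:**
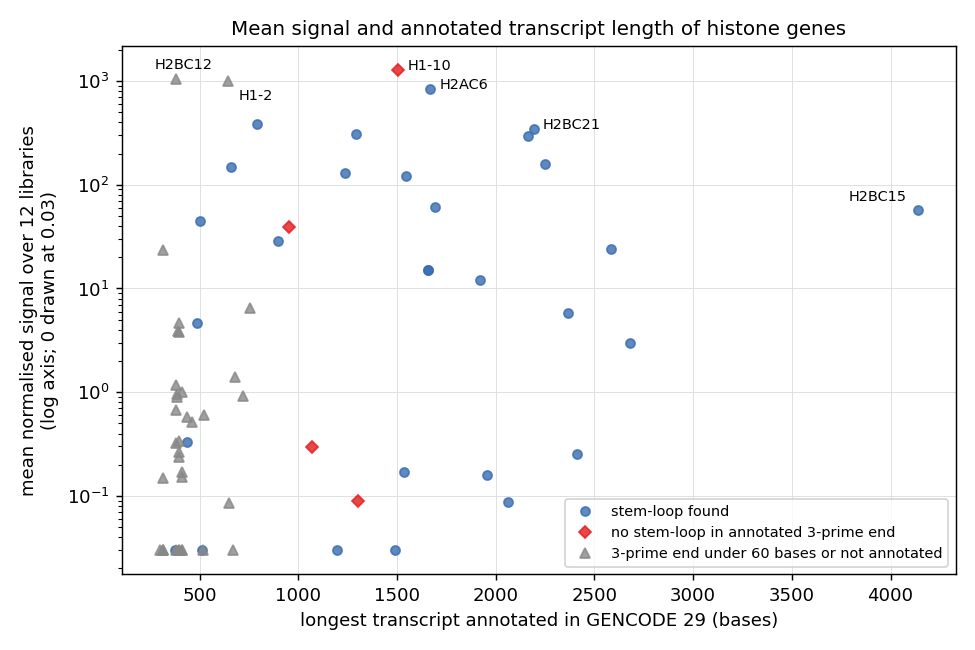
Mean signal over the 12 libraries (log axis) against the length in bases of the longest transcript annotated in GENCODE 29, 1 point per histone gene, with colour for the stem-loop. Genes with short annotated transcripts and no annotated 3′ end sit mostly below a signal of 10, with H2BC12, H1-2 and H4C12 as exceptions (1037, 989 and 23.4).

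Neighbouring genes that share a promoter region are given per kilobase of annotated transcript. In 12 pairs, the starts of the 2 genes, which point away from each other, lay 219 to 357 bases apart, and 4 of the pairs had both genes tested. H2BC4 and H2AC6, with starts 219 bases apart, had mean levels per kilobase of 225 and 506. H2BC12 and H2AC12, both known only by their coding sequence and 331 bases apart, had mean levels per kilobase of 2721 and 2.33. H2AC12 was below the filter.

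Near-identical copies limit what single values mean. The share of a gene's 31-base words that also occur in transcripts of other genes had a median of 16.4% over the tested genes and was at least 20% in 11 of the 26 that could be counted. H3C14 and H3C15 share all of theirs and had identical values, so they hold 1 measurement. H4C14 and H4C15 share 98.6% and 97.2% of theirs, H4C12 shares 100% with H4C11 and H2BC12 shares 86.3%, mainly with H2BC12L. Values of these genes are uncertain, because reads were divided between copies by estimation. H1-2 (0.817%), H4C8 (1.22%) and H2AC6 (1.80%) were nearly free of shared words.

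The first comparison asked what the mimic changed. With the mimic, 0 of the 27 tested histone genes passed the adjusted threshold (limma with Benjamini-Hochberg adjustment over all 16468 tested genes, adjusted p under 0.05), beside 0.759% of all tested genes (0.686% higher and 0.0729% lower). At an unadjusted p under 0.05, 3 were lower (4.73% of all genes) and 0 were higher (8.51% of all genes). The 3 were H2AC11, H2BC21 and H2BC12. The mimic libraries lay wholly below their controls for H2AC11, H2BC21 and H2BC4 (3 of 27, beside 6.47% of all genes) and wholly above them for 0 (9.92% of all genes). In bulk RNA of this kind, fewer cells that hold a transcript and less of it per cell cannot be told apart. In the same comparison 18 of 20 genes used in S phase lay above 0 (52.1% of all genes), with a median log2 difference of 0.38. At an unadjusted p under 0.05, 12 of them were higher (8.51% of all genes) and 0 were lower (4.73%). Whether S phase has a part in the lower histone values was not tested.

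H2AC11 (chr6:27133042-27135291), a core H2A gene of the chromosome 6 cluster, showed the smallest p among the histone genes. Its signal was 140.5, 189.8 and 170.6 in the mimic controls and 114.4, 101.2 and 111.9 with mimic. All 3 mimic libraries lay below all 3 controls, and below all 6 inhibitor and inhibitor control libraries, which lay between 159 and 198. The log2 difference was -0.60 ± 0.13 (SE, n = 3 against 3, limma adjusted p = 0.0602). Leaving out mimic replicate 3 gave -0.62 (limma adjusted p = 0.0315).

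H2BC21 (chr1:149884459-149886652), an H2B gene known for a polyadenylated transcript in differentiated cells, had a signal of 414.6, 438.7 and 366.1 in the mimic controls and 366.0, 319.3 and 273.6 with mimic. The groups did not overlap, although the highest mimic value almost met the lowest control. The log2 difference was -0.35 ± 0.13 (SE, n = 3 against 3, limma adjusted p = 0.250), and -0.25 without mimic replicate 3 (limma adjusted p = 0.270). The inhibitor libraries of H2BC21 were not higher than their controls: they had 340.9, 307.1 and 271.8 against 381.6, 328.6 and 344.4. It was thus the core gene with a mean above 300 that lay lower on average under both oligonucleotides than in their controls, without passing the test in either comparison (log2 difference with inhibitor -0.20 ± 0.13, SE, limma adjusted p = 0.520).

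H2BC12, the H2B gene with the highest signal, had 1021, 932.8 and 876.3 in the mimic controls and 785.5, 672.6 and 916.8 with mimic. Mimic replicate 3 lay inside the range of the controls and the other mimic libraries below it. The log2 difference was -0.26 ± 0.11 (SE, n = 3 against 3, limma adjusted p = 0.312), and without mimic replicate 3 it was -0.37 (limma adjusted p = 0.0380).

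In units of signal, the range of mimic libraries was widest for H1-10, a linker histone gene and the one with the highest level. It had 1069, 1028 and 832.1 in the mimic controls and 530.9, 666.1 and 1454 with mimic. Mimic replicate 3 was above all 3 controls, near the inhibitor controls (1633 to 1816), whereas the other mimic libraries were below all 3. The log2 difference was -0.28 ± 0.27 (SE, n = 3 against 3, limma adjusted p = 0.727). Leaving out mimic replicate 3 gave -0.71 (limma adjusted p = 0.00950). H4C9, an H4 gene, was spread in the opposite sense, with 312.0, 330.8 and 369.0 in the controls and 526.8, 378.6 and 217.6 with mimic, where replicate 3 was the lowest. Its log2 difference was 0.06 ± 0.25 (SE, limma adjusted p = 0.947), and 0.41 without mimic replicate 3 (limma adjusted p = 0.178).

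Without mimic replicate 3, 3 of 26 tested histone genes fell with mimic (H1-10, H2AC11 and H2BC12) and 0 rose, beside 2.03% of all tested genes that fell and 2.86% that rose. Over all 12 libraries the fitted differences of the 27 genes had a median of -0.19 (log2) beside 0.01 for all genes, and 8 were above 0 (52.1% of all genes) and 19 below. All 5 H2A genes were below 0 (median -0.21), as were 6 of 9 H2B, 3 of 4 H3 and 4 of 6 H4 genes, but 1 of 3 H1 genes. Among genes with a stem-loop 16 of 19 were below 0. Without mimic replicate 3 the median over 26 genes was -0.12, and 7 were above 0 (53.9% of all genes).

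**Figure D3:**
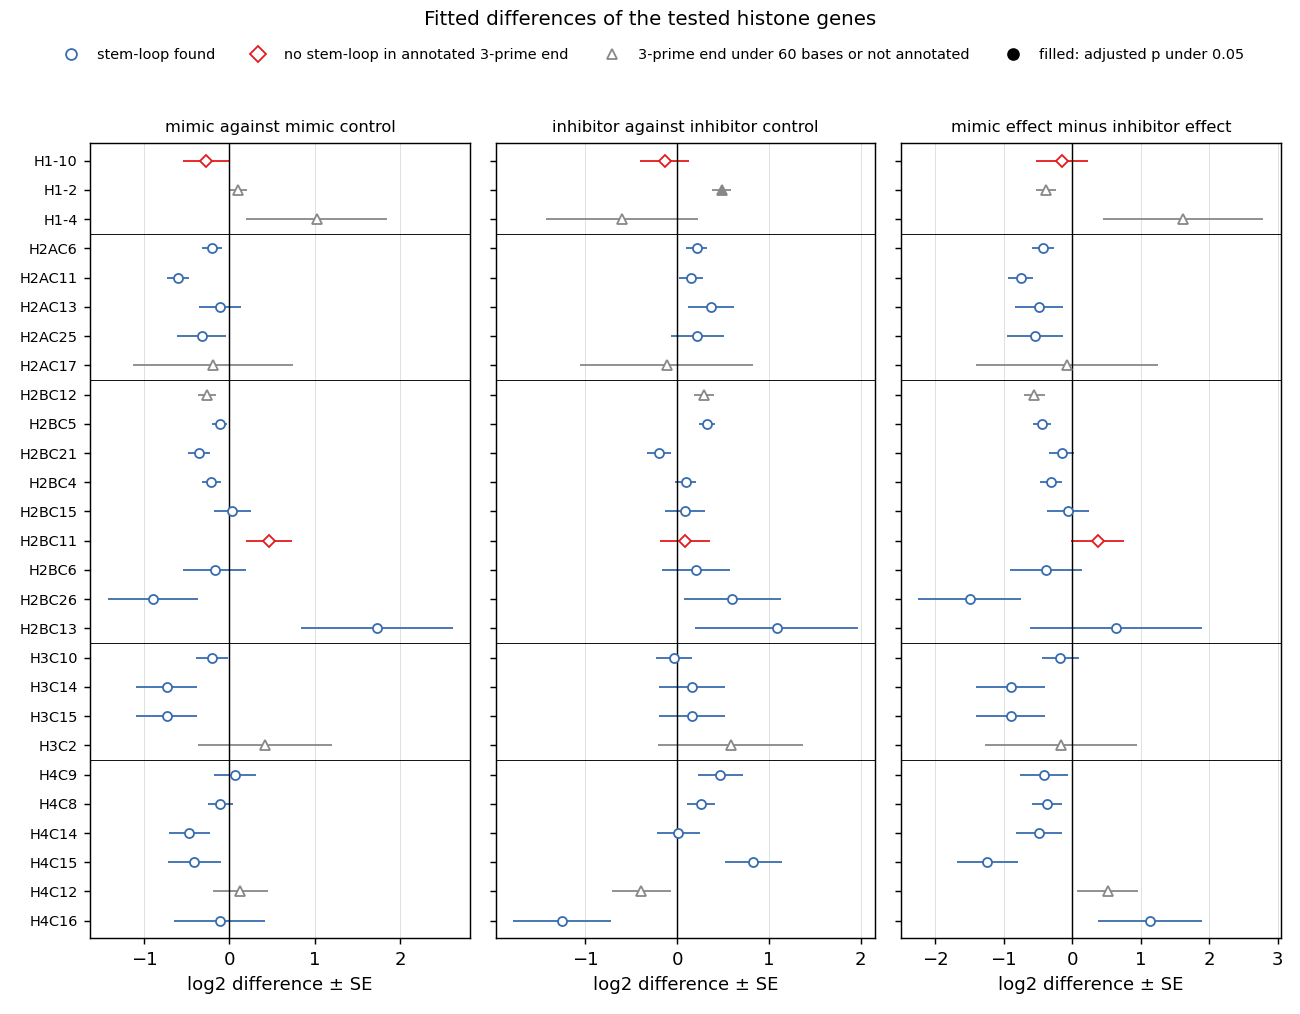
Fitted log2 differences with their SE for the 27 tested histone genes in 3 comparisons, with symbols for the stem-loop and a filled symbol for an adjusted p under 0.05. Stem-loop genes lie mostly left of 0 with mimic and right of 0 with inhibitor, and the single filled point is H1-2 with inhibitor. The error bars of the low genes H1-4, H2AC17, H2BC13 and H3C2 are the widest.

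The second comparison asked what the inhibitor changed. Here 1 of 27 histone genes, H1-2, passed the threshold and was higher, beside 0.765% of all tested genes called higher, 0.783% called lower and 1.55% called in either direction. At an unadjusted p under 0.05, 4 genes were higher (7.92% of all genes), namely H1-2, H2BC5, H2BC12 and H4C15, and 1 was lower (6.54% of all genes), H4C16. The inhibitor libraries lay wholly above their controls for 7 genes (14.4% of all genes) and wholly below them for 2 (10.9%).

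H1-2 (chr6:26055787-26056428) encodes a linker histone of the chromosome 6 cluster. Its signal was 956.6, 864.8 and 1016 in the inhibitor controls and 1280, 1275 and 1409 with inhibitor. All 3 inhibitor libraries were above every other library of the series, of which the highest was 1027, a mimic library. The fitted log2 difference was 0.48 ± 0.11 (SE, n = 3 against 3, limma adjusted p = 0.0418). The call was close to the threshold: leaving out any 1 of the 9 libraries outside the mimic group moved the adjusted p to between 0.0634 and 0.174. The size of the difference stayed between 0.42 and 0.54 when any 1 of the 12 libraries was left out.

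H2BC5 (chr6:26158146-26171349), an H2B gene, had 372.6, 356.2 and 372.4 in the inhibitor controls and 477.6, 440.5 and 464.3 with inhibitor. The gap between the groups was wider than the range of either. Its log2 difference was 0.33 ± 0.089 (SE, n = 3 against 3, limma adjusted p = 0.101). Without mimic replicate 3 the difference was the same and the limma adjusted p was 0.0482. That library is not in this comparison and enters only through the shared spread, the filter and the adjustment. In the fit without it, H1-2 and H2BC5 were the 2 of 26 genes called higher (2.03% of all genes), and 0 were called lower (1.97%). H2BC12 had 1063, 1031 and 1164 in the inhibitor controls and 1306, 1352 and 1320 with inhibitor. These groups did not overlap either (log2 difference 0.29 ± 0.11, SE, limma adjusted p = 0.234).

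Of the other core genes, H2AC6, the H2A gene with the highest signal, had 760.8, 754.6 and 871.1 in the inhibitor controls and 911.9, 850.4 and 1010 with inhibitor, where 1 inhibitor library overlapped the controls (log2 difference 0.22 ± 0.11, SE, limma adjusted p = 0.415). H4C9 had 199.8, 203.7 and 232.3 in the controls and 298.0, 242.0 and 350.4 with inhibitor, without overlap but with a wide spread (log2 difference 0.47 ± 0.25, SE, limma adjusted p = 0.413). H4C8 had 299.9, 321.8 and 333.0 against 437.5, 326.6 and 387.6, with overlap. H4C15 had 31.06, 65.38 and 39.35 against 78.19, 80.63 and 72.63, but it shares nearly all its sequence with H4C14. The sum of these copies, taken after the values were seen, was 194, 214 and 137 in the controls and 209, 237 and 191 with inhibitor, and the groups overlapped.

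H4C16, an H4 gene outside the clusters on chromosome 12, was the only gene with an unadjusted p under 0.05 that was lower with inhibitor. Its signal was 13.67, 21.46 and 15.39 in the controls and 12.63, 8.286 and 2.659 with inhibitor, so that the lowest library held about as much signal as 3 reads. Its log2 difference was -1.25 ± 0.53 (SE, n = 3 against 3, limma adjusted p = 0.304). H1-4, a low linker histone gene, was the other one whose inhibitor libraries all lay below the controls (7.504, 4.067 and 9.195 against 9.899, 10.57 and 10.19).

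The median fitted difference with inhibitor was 0.16 (log2) over the 27 genes and 0.03 over all genes, and 20 of 27 were above 0 beside 53.8% of all genes. Above 0 were 4 of 5 H2A, 8 of 9 H2B, 3 of 4 H3, 4 of 6 H4 and 1 of 3 H1 genes, and 16 of 19 genes with a stem-loop. H1-10 was not among them, with a log2 difference of -0.13 ± 0.27 (SE).

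**Figure D4:**
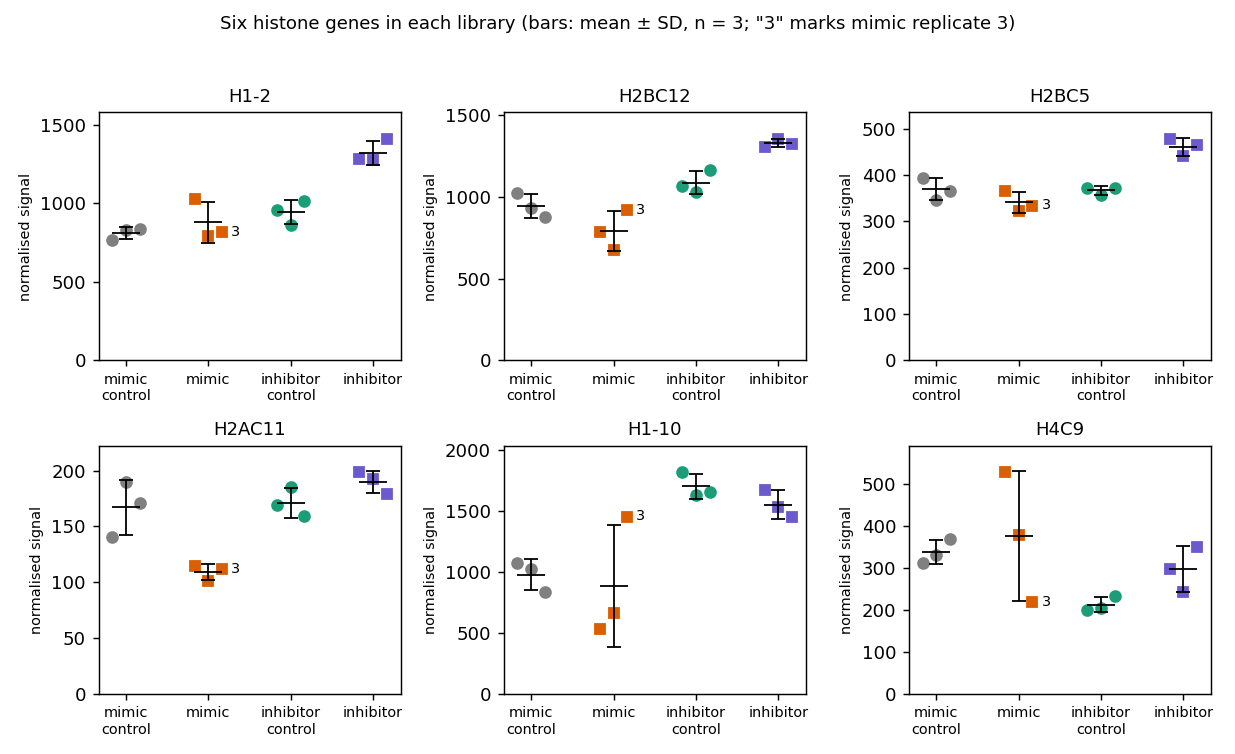
Signal of H1-2, H2BC12, H2BC5, H2AC11, H1-10 and H4C9 in each library by group, with the mean and SD of 3 libraries as bars and mimic replicate 3 marked. The inhibitor libraries stand above all others for H1-2, H2BC12 and H2BC5, the mimic libraries stand below all others for H2AC11, for H1-10 the inhibitor and inhibitor control groups lie above the mimic controls, and the H4C9 mimic libraries spread from 217.6 to 526.8.

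The third comparison set the mimic effect against the inhibitor effect, that is, the mimic difference from its control minus the inhibitor difference from its own. Of the 27 histone genes 0 passed the threshold, beside 0.850% of all tested genes (0.625% positive and 0.225% negative). An unadjusted p under 0.05 was found for 6 genes (12.8% of all genes), and all 6 had a negative value (5.79% of all genes). They were H2AC11 (-0.75 ± 0.18, limma adjusted p = 0.0891), H2BC12 (-0.55 ± 0.15, limma adjusted p = 0.131), H2BC5 (-0.44 ± 0.13, limma adjusted p = 0.1504), H2AC6, H1-2 and H4C15. Without mimic replicate 3, H2AC11 was at -0.77 (limma adjusted p = 0.0517) and H2BC5 at -0.43 (limma adjusted p = 0.0882), and H2BC12 passed (-0.66, limma adjusted p = 0.0197), 1 of 26 genes beside 1.37% of all genes called negative, and 0 were positive beside 1.78%.

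In all, 22 of the 27 genes had a value below 0 and 5 a value above 0 (49.1% of all genes), and the median was -0.38 (log2) beside -0.01 for all genes. Below 0 were all 5 H2A and all 4 H3 genes, 7 of 9 H2B, 4 of 6 H4 and 2 of 3 H1 genes. All 12 genes with a mean signal of at least 100 were below 0, and of the 15 lower ones 10 were. A fitted difference below 0 with mimic together with one above 0 with inhibitor was found for 14 of the 27 genes, 51.9% of them, beside 24.1% of all tested genes. Among genes with a stem-loop it was found for 13 of 19. Without mimic replicate 3 it was found for 15 of 26 genes (57.7%, beside 22.0% of all genes), and 21 of 26 had a mimic effect minus inhibitor effect below 0. Copies that share reads are not independent in these counts, and H3C14 and H3C15 enter as 2 genes with the same values.

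The control groups also differed from each other. The mimic and inhibitor differences above were each taken from their own control only. The 2 controls are different oligonucleotides, and the sources used here do not say if the groups were also handled at different times. Between the inhibitor control and the mimic control, 0 of 27 histone genes passed the threshold by limma, beside 4.74% of all tested genes called higher, 5.38% called lower and 10.1% in either direction. At an unadjusted p under 0.05, 6 were higher (13.4% of all genes) and 1 was lower (15.7%). The inhibitor controls lay wholly above the mimic controls for 10 genes (19.7% of all genes) and wholly below them for 2 (21.6%).

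H1-10 (chr3:129314771-129316277), which had the highest mean signal of the genes described here, did not overlap between the controls. It had 1816, 1633 and 1652 in the inhibitor controls beside 1069, 1028 and 832.1 in the mimic controls. The log2 difference was 0.81 ± 0.27 (SE, limma adjusted p = 0.0706). Without mimic replicate 3 the difference was the same and the limma adjusted p was 0.000569. That library is in neither control group and enters only through the shared spread, the filter and the adjustment. All 3 tested H1 genes were higher in the inhibitor control in every library, with a median of 0.81 (log2). The single gene that was lower at an unadjusted p under 0.05 was H4C9, with 199.8, 203.7 and 232.3 in the inhibitor controls against 312.0, 330.8 and 369.0 in the mimic controls (-0.67 ± 0.25, SE, limma adjusted p = 0.0981). The remaining genes that were higher at that level were H2BC11, H4C12, H4C8, H1-4 and H2BC4, with log2 differences between 0.25 and 2.04 and none past the adjusted threshold. Without mimic replicate 3, H1-10, H2BC11 and H4C12 were called higher, 3 of 26 beside 11.1% of all genes, and H4C9 was called lower, beside 11.9%.

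In this comparison the genes with a stem-loop and those whose annotated 3′ end held none had the medians furthest apart. The 19 tested genes with a stem-loop had a median difference of -0.04 (log2), with 8 above 0 and 11 below. H1-10 and H2BC11, the 2 tested genes whose annotated 3′ ends held none, had a median of 0.85. The 6 tested genes with too short an annotated 3′ end to be read had a median of 0.51. All 6 lay above 0, beside 47.9% of all genes. Whether the stem-loop has a part in these differences was not tested. The summed signal gives the genes with and without a stem-loop as levels. All 29 stem-loop genes together had 3082 ± 98 in the mimic controls, 2707 ± 333 with mimic, 2903 ± 33.0 in the inhibitor controls and 3315 ± 144 with inhibitor (SD, n = 3). The 4 genes without one had 1002 ± 133, 918 ± 502, 1746 ± 101 and 1603 ± 106 in the same order. The stem-loop sum thus overlapped between mimic and mimic control (2436 to 3078 and 2969 to 3142) and did not overlap between inhibitor (3150 to 3414) and inhibitor control (2868 to 2934). The other sum was set by H1-10.

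**Figure D5:**
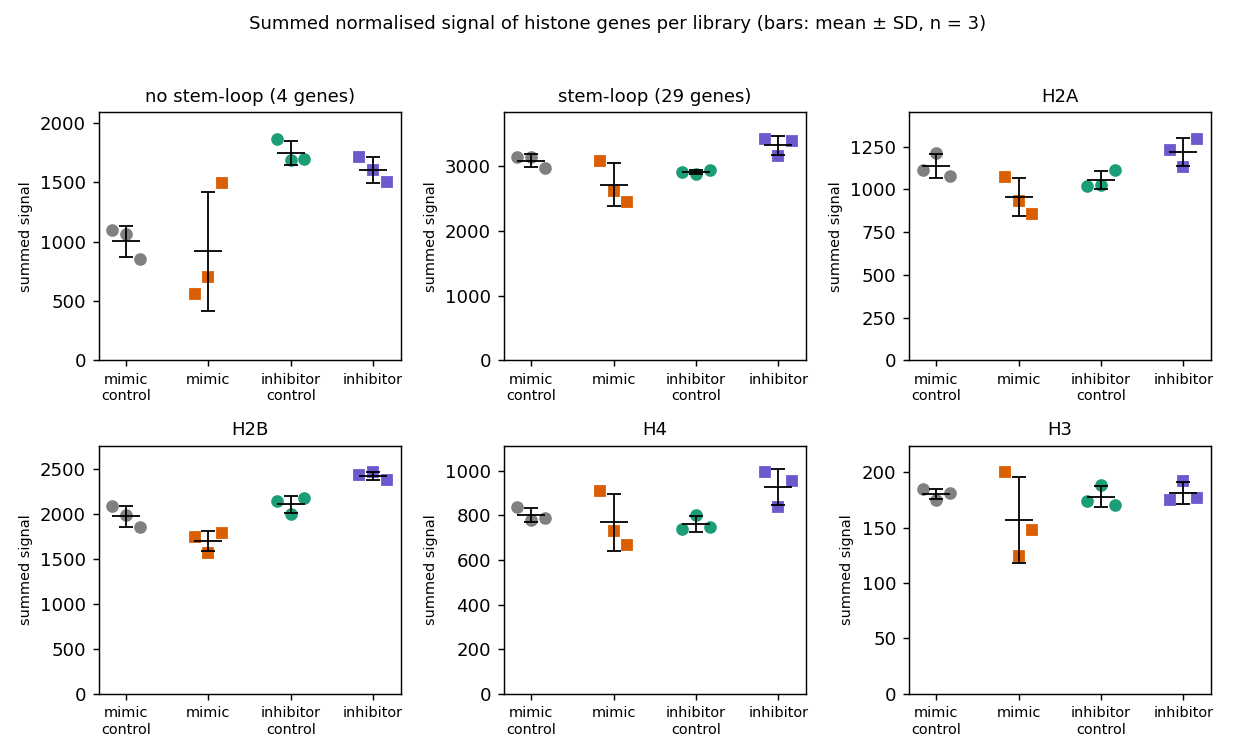
Summed normalised signal per library for the histone genes without a stem-loop (4 genes), those with one (29 genes) and the core classes H2A, H2B, H4 and H3, with the mean and SD of 3 libraries as bars. The sum without stem-loop lies between 1499 and 1863 in all inhibitor control and inhibitor libraries, the stem-loop sum is highest with inhibitor, and the H3 sum is near 180 in every group except mimic, where it spans 124 to 200.

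By class, the H2B sum was 1972 ± 117 in the mimic controls and 1696 ± 113 with mimic, and 2106 ± 93.7 in the inhibitor controls and 2419 ± 41.3 with inhibitor (SD, n = 3). Neither pair of groups overlapped, with 1741 and 1568 in the mimic libraries other than replicate 3, and most of this sum came from H2BC12, H2BC5 and H2BC21. The H2A sum was 1137 ± 68.5, 955 ± 111, 1054 ± 53.2 and 1219 ± 84.0 in the same order, and that of H4 was 801 ± 31, 769 ± 126, 763 ± 35.7 and 927 ± 80.9. The H2A sum did not overlap in either pair, although the highest mimic library (1076) almost met the lowest control (1081). The H4 sum did not overlap between inhibitor (837 to 993) and its control (738 to 804), but did between mimic and mimic control. The H3 sum was the lowest of the core classes and lay between 157 and 181 on average in every group. H3C10, the H3 gene with the highest signal, had 134.0, 133.1 and 144.0 in the mimic controls, 172.2, 97.66 and 99.75 with mimic, 133.2, 149.9 and 119.2 in the inhibitor controls and 126.5, 128.1 and 136.9 with inhibitor, and no pair of groups was separated.

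Of 24 genes that make and mature histone mRNA, all tested, 0 rose and 0 fell with mimic or with inhibitor by limma at the adjusted threshold, with medians of 0.04 and -0.02 (log2). At an unadjusted p under 0.05, 2 were higher (8.51% of all genes) and 1 was lower (4.73%) with mimic, and 2 were higher with inhibitor (7.92%). SLBP, which binds the stem-loop, had 769 ± 16.3 in the mimic controls, 793 ± 61.0 with mimic, 707 ± 35.7 in the inhibitor controls and 796 ± 99.1 with inhibitor (SD, n = 3). NPAT, the coactivator of histone gene transcription, had 117 ± 11.5, 88.1 ± 25.0, 80.6 ± 12.2 and 81.3 ± 20.7 in the same order, and passed the test in no comparison. Between the controls LSM10, a subunit of the U7 particle that cleaves histone mRNA, was higher in the inhibitor control (0.33, limma adjusted p = 0.0307) and TUT7, a terminal uridylyltransferase, was lower (-0.50, limma adjusted p = 0.0156). Each was 1 of 24 genes, beside 4.74% of all genes called higher and 5.38% called lower. In the fit without mimic replicate 3, CCNE1, LSM10 and UPF1 were called higher in the inhibitor control, 3 of 24 beside 11.1% of all genes. TUT7 was called lower, 1 of 24 beside 11.9%.

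The replication genes are given beside the histones because both are known to be used in S phase. Of 20 S phase genes, 2 rose with mimic, RRM2 (0.81, limma adjusted p = 0.0383) and POLA1 (0.73, limma adjusted p = 0.0273), and their median was 0.38 (log2), while the median of the histone genes was -0.19. In the fit without mimic replicate 3, 5 rose with mimic (CDC45, FEN1, MCM4, POLA1 and RRM2). At an unadjusted p under 0.05, 12 of the 20 were higher with mimic. With inhibitor 0 rose or fell by limma (1 higher and 1 lower at an unadjusted p under 0.05), and the median was 0.08. Between the controls 11 were higher in the inhibitor control, with a median of 0.51 and RRM2 (1.39) and CDC45 (1.08) at the top. The stem-loop histone genes had a median of -0.04 there, and all 27 tested histone genes had one of 0.16. Of the 9 tested replication-independent histone variants, 4 were higher in the inhibitor control (H2AX, H2AJ, H2AZ1 and H2AZ2, log2 differences between 0.34 and 0.87), and 0 were called with mimic or inhibitor by limma (4 and 2 higher at an unadjusted p under 0.05). Of 22 histone chaperones, ASF1B, CHAF1B and TONSL were higher in the inhibitor control and 0 were called with mimic or inhibitor (5 and 3 higher at an unadjusted p under 0.05). Without mimic replicate 3, 14 S phase genes, 4 variants and 4 chaperones were higher in the inhibitor control, beside 11.1% of all genes. In that fit 3 chaperones (ATRX, NAP1L1 and SET) were lower, beside 11.9%. UNG, of the S phase genes, fell with inhibitor, beside 1.97%, and 2.86% of all genes rose with mimic. With all 12 libraries, 0.686% of all tested genes were called higher with mimic and 4.74% in the inhibitor control. At an unadjusted p under 0.05, 8.51% were higher with mimic and 7.92% with inhibitor. The part of S phase in the histone values was not tested.

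Markers of other cell types were followed in the same libraries. The summed signal of 6 epithelial markers was 2266 to 2588 in the mimic controls, 2682 to 3399 with mimic, 3216 to 3586 in the inhibitor controls and 4833 to 5388 with inhibitor. Only 3 of the 6 passed the filter for testing, while EPCAM, CDH1 and KRT19 fell below it. The 3 tested, KRT8, KRT18 and CLDN4, rose with inhibitor, the comparison in which H1-2 did. The sums of blood and endothelial markers stayed below 37 in every library. The part of these markers in the histone values was not tested.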

How the data were processed

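Total RNA of 12 libraries, 3 in each of 4 groups, was sequenced. Per the submitters' processing notes, FastQC, Trim Galore, kallisto and sleuth were used with hg38. Versions, annotation release and library selection are not given in the sources used here. H3C2 and H3C3 have values in the data but no transcript in GENCODE 29, so the reference used for quantification was not that release. Transcript lengths, 3′ ends and shared words taken from GENCODE 29 may therefore differ from those used for quantification. As deposited by the authors, the signal is 1 value per Ensembl gene: kallisto's estimated counts of its transcripts, added up and scaled by the size factor of the library, with no length correction. Because kallisto divides reads between similar sequences, values of near-identical histone copies are uncertain.

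Symbols came from a gene name table (35521 of 40490 identifiers), positions and transcripts from GENCODE 29, promoters and the microRNA from RefSeq. The filter for testing was a signal of 5 or more in 6 of the 12 libraries, which 16468 genes passed. For these, limma 3.58.1 (R 4.3.3) fitted log2(signal + 0.5) by group over the 12 libraries (eBayes with trend, two-sided), with Benjamini-Hochberg adjustment over all tested genes and a threshold of 0.05. Fold changes on this scale understate the change of low genes. The procedure was tested on simulated data. Python 3.11.15, numpy 2.4.6, pandas 2.3.3 and matplotlib 3.10.9 were used for sequence searches and plots. Named were histone genes with an adjusted or unadjusted p under 0.05 in any comparison, the 3 highest of each class, the lowest tested and the highest untested gene, and of the related lists those past the threshold. SLBP, NPAT and members of pairs or copies were named in addition. The genes and lists were chosen with earlier results of these data known. Alternatives were other pseudocounts, filters, scalings and weights, a fit on the libraries of 1 comparison, a replicate block and leaving out each library. Every deposited file was used. A gene that matches the rule is not reported here and enters no count of the histone genes.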

Additional observations from a re-analysis of the deposited data

How the results depend on the processing

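Each result was computed again under 21 alternative settings, and no direction turned for the genes with an unadjusted p under 0.05 in a comparison, in that comparison. Without mimic replicate 3, the log2 difference with mimic turned for 5 other genes close to 0 or low in signal, among them H2AC13 (-0.11 to 0.04), H4C12 (0.13 to -0.09) and H4C16 (-0.11 to 0.03). Of the medians, that between the controls turned from 0.16 to -0.0052 without inhibitor control replicate 1. With mimic, 1 histone gene was called after a filter on a mean signal of at least 20, after rescaling by the median ratio and after rescaling without mitochondrially encoded genes (H2AC11 each time, beside 1.06%, 0.759% and 0.595% of all genes), and 2 were called with array weights (3.21%). Leaving out 1 library gave 0 to 3, where 3 came without mimic replicate 3 (4.88%). With inhibitor, 0 were called with no filter on low values, 3 with array weights (7.65%), and 0 to 2 when 1 library was left out. Between the controls, 4 were called when only the libraries of the comparison were fitted (23.8% of all genes), 5 with array weights (28.1%), and 0 to 4 when 1 library was left out (2 without mimic replicate 1, 4 without mimic replicate 3 and 1 without inhibitor replicate 1, beside 15.1%, 23.0% and 7.90% of all genes); each of these is a smaller share of the histone genes than of all genes. For the mimic effect minus the inhibitor effect, 3 were called with array weights (3.79%) and 0 to 1 when 1 library was left out. The median log2 difference ranged from -0.25 to -0.083 (without mimic replicate 2) with mimic, 0.10 (without inhibitor replicate 2) to 0.20 with inhibitor, -0.0052 to 0.20 between the controls and -0.42 to -0.31 for the difference of effects over the libraries left out.

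The replicate numbers did not pair the libraries: same-numbered libraries of different groups had residual correlations of -0.180 to 0.0630, and 0 of 18 were above 0.1. With a replicate block 0 histone genes were called with mimic, 0 with inhibitor (H1-2 adjusted p = 0.0714 by limma), 0 between the controls and 0 for the difference of effects.

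The counts of calls over all genes moved as well, from 46 to 797 with mimic and from 88 to 653 with inhibitor over the libraries left out. Near the threshold, the call of H1-2 was kept in 10 of 21 alternatives (limma adjusted p 0.00501 to 0.174). Depth limits the low genes: a signal below about 3 is that of 3 reads, so 44 untested genes allow no statement on change.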

Other observations

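Symbols that start like those of the histone genes but are not annotated as protein coding were left out of the report. Of the 19 in the data, 12 were 0 in every library and 2 passed the filter for testing. H2BC20P had a mean signal of 111 (66.5 to 185 over the 12 libraries) and H2BC19P a mean of 56.0 (27.8 to 149). As the pseudogenes resemble coding H2B genes, the division of reads between them is uncertain.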
